A study of Bos taurus with 8 samples.

Results

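In bovine follicles, 47 genes of glucose transport and central carbon metabolism were read in granulosa cells, the cells that line the follicle, of atretic and of plateau dominant follicles from Holstein cattle. The members were chosen by name, as the probes whose gene symbol in the array's annotation is one of the 47 names. Of these, 44 names had a probe, with 73 of the array's 43794 gene probes, while GAPDH, PKM and PKM2 matched no symbol in the annotation used here. The array as a whole carried 15216 symbols. Under the names stand the carriers that bring glucose in and let lactate out, the steps of glycolysis from hexokinase to lactate dehydrogenase, the pyruvate dehydrogenase complex with its kinases, the pentose phosphate pathway and the citric acid cycle.

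Glycolysis splits glucose into pyruvate, which is either reduced to lactate by lactate dehydrogenase or burned in mitochondria after the pyruvate dehydrogenase complex has turned it into acetyl-CoA. The pyruvate dehydrogenase kinases switch that complex off and so hold pyruvate back from the citric acid cycle. The granulosa layer has no blood vessels of its own, and granulosa cells are known for a strong glycolysis that provides the oocyte with pyruvate and lactate.

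Follicles over 9 mm were taken from slaughterhouse ovaries of animals of unknown reproductive status, and the cells were scraped off the follicle wall. The study sorted follicles by flow cytometry of DNA content, where atretic follicles, which regress, had the most cells with DNA loss and plateau follicles, whose growth has slowed, lay in the middle of the ranking. RNA of 4 atretic and 4 plateau follicles was amplified and hybridised to 8 two-colour bovine arrays on 2 slides, on which every array carried RNA of an atretic and of a plateau follicle. The second slide repeated the pairs of the first with the dyes swapped, which leaves 4 pairs of follicles, numbered 1 to 4. The levels below are log2 intensities of a probe in a follicle, averaged over both dyes, and each ratio is the log2 level of the atretic minus that of the plateau follicle, given as mean ± SD of 4 pairs. Positive ratios are higher in atretic follicles. A level says how bright a probe was and is not compared between probes. Nothing ties the follicles to separate cows, so that the p-values measure only the spread between these samples, and slide and dye orientation cannot be told apart.

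Median spot intensities were 163 to 285 in Cy5 and 206 to 376 in Cy3, the negative control spots had a mean log2 intensity of 6.66 to 6.80, and the number of pairs limits the precision. The granulosa label was compared with 11 markers of these cells, whose mean level was 11.15 to 12.60 in atretic follicles and 9.42 to 12.91 in plateau follicles. The plateau follicle of pair 3 stood apart, with the lowest mean of the granulosa markers, 9.42, and the highest mean of 9 markers of fibroblasts and stroma, 12.29, against 8.48 to 9.23 in the other plateau follicles and 8.47 to 9.55 in atretic follicles. The plateau follicle of pair 2 had the next lowest granulosa mean, 10.16. Its mean of macrophage and myeloid markers was the highest, 9.12, followed by 8.94 in the plateau follicle of pair 3 and 7.05 to 8.14 in all others. INHA, the alpha subunit of inhibin, read 15.97, 15.91, 15.97 and 15.75 in atretic follicles, against 15.85, 13.97, 11.499 and 15.97 in plateau follicles, and COL1A2, a collagen chain of fibroblasts, read 8.32, 7.37, 8.91 and 8.72 in atretic follicles, against 7.94, 9.12, 15.83 and 9.9997 in plateau follicles. The mean of 7 theca markers was 11.40 in the atretic follicle of pair 1, 10.95 in the plateau follicle of pair 4 and 8.68 to 10.22 in all others. Their mean ratio was 1.47, -0.25, -0.32 and -0.73 in pairs 1 to 4, with 4 of the 7 genes above 0 and 3 below. CYP17A1, a theca enzyme among them, was brightest in the atretic follicle of pair 1, at 9.42, against 7.02 to 7.53 in the other atretic follicles and 7.08 to 8.41 in plateau follicles. The called members and their counts are therefore also given without pair 3. In such tissue samples, fewer cells of a type and less RNA per cell cannot be told apart.

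Of the 73 member probes, 69 reached the minimum mean log2 intensity of 7 and were tested in limma together with all other gene probes, 34022 in total, and 4 dimmer probes of PFKFB1, PDK1, TALDO1 and CS were not. No member probe and no probe of the array passed an adjusted p of 0.05 (0% of 34022 probes), and the lowest adjusted p was 0.167 over all probes and over the members. At an unadjusted p of 0.05, 5 member probes (7.25%) and 2548 probes of the array (7.49%) passed. The genes said to rise or fall below passed the threshold named by the study, a fold of 1.5 at an unadjusted p of 0.05, a threshold under which false calls are not limited. By probe, 1 member probe rose (1.45%), beside 2.1% of all probes, and 4 fell (5.80%), beside 1.96%. Read by its brightest probe, 1 gene of 44 rose (2.27%), beside 2.79% of all 13068 genes tested, and 4 fell (9.09%), beside 2.88%. SLC37A1 rose, while PDK1, ENO1, TPI1 and ALDOA fell. In both directions together these were 5 of 69 member probes (7.25%), beside 4.06% of all probes. Without pair 3, 4 member probes of 4 genes passed (5.80%, beside 3.76% of all probes), and TPI1 no longer did. The number was 10 probes without pair 1 (14.5%, beside 4.99%), 10 without pair 2 (14.5%, beside 5.30%) and 7 without pair 4 (10.1%, beside 4.39%). Read by brightest probe, 8, 10 and 7 genes of 44 passed in these fits, for which the share of all genes was not computed. When all 8 arrays entered limma and the pairs formed a replicate block, calls rose over the whole array, to 6.48% of all probes, and 10 member probes of 9 genes passed (14.5%), where LDHA, PFKP, SLC16A1 and PDK4 joined these 5. With the minimum log2 intensity set at 8, 6 of 47 member probes passed (12.8%), beside 9.17% of all probes that reached it.

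The members as a whole were spread unevenly over the pairs. Their median ratio was -0.23 over the 44 genes, beside 0.0014 over all genes, with 30 genes below 0 and 14 above. By pair, the median of the members was 0.10 in pair 1, 0.14 in pair 2, -0.55 in pair 3 and -0.50 in pair 4, while that of all genes stayed between -0.0043 and 0.02. Of the 44 genes, 24 lay above 0 in pair 1 (54.5%), 23 in pair 2 (52.3%), 10 in pair 3 (22.7%) and 12 in pair 4 (27.3%). Over all genes this share was 49.5 to 52.6% in each pair, so that the members had fewer genes above 0 in pairs 3 and 4. The median absolute ratio of the members was 0.36, beside 0.16 over all genes, and their median SD over pairs was 0.61, beside 0.39. The members were also brighter than the array, with a median log2 intensity of 11.16, beside 8.25, and the part of brightness in this spread was not tested. Only 7 members (15.9%) had the same sign in all 4 pairs, beside 16.8% of all genes. The median of the members was -0.04 without pair 3 and -0.09 without pair 4.

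**Figure D1:**
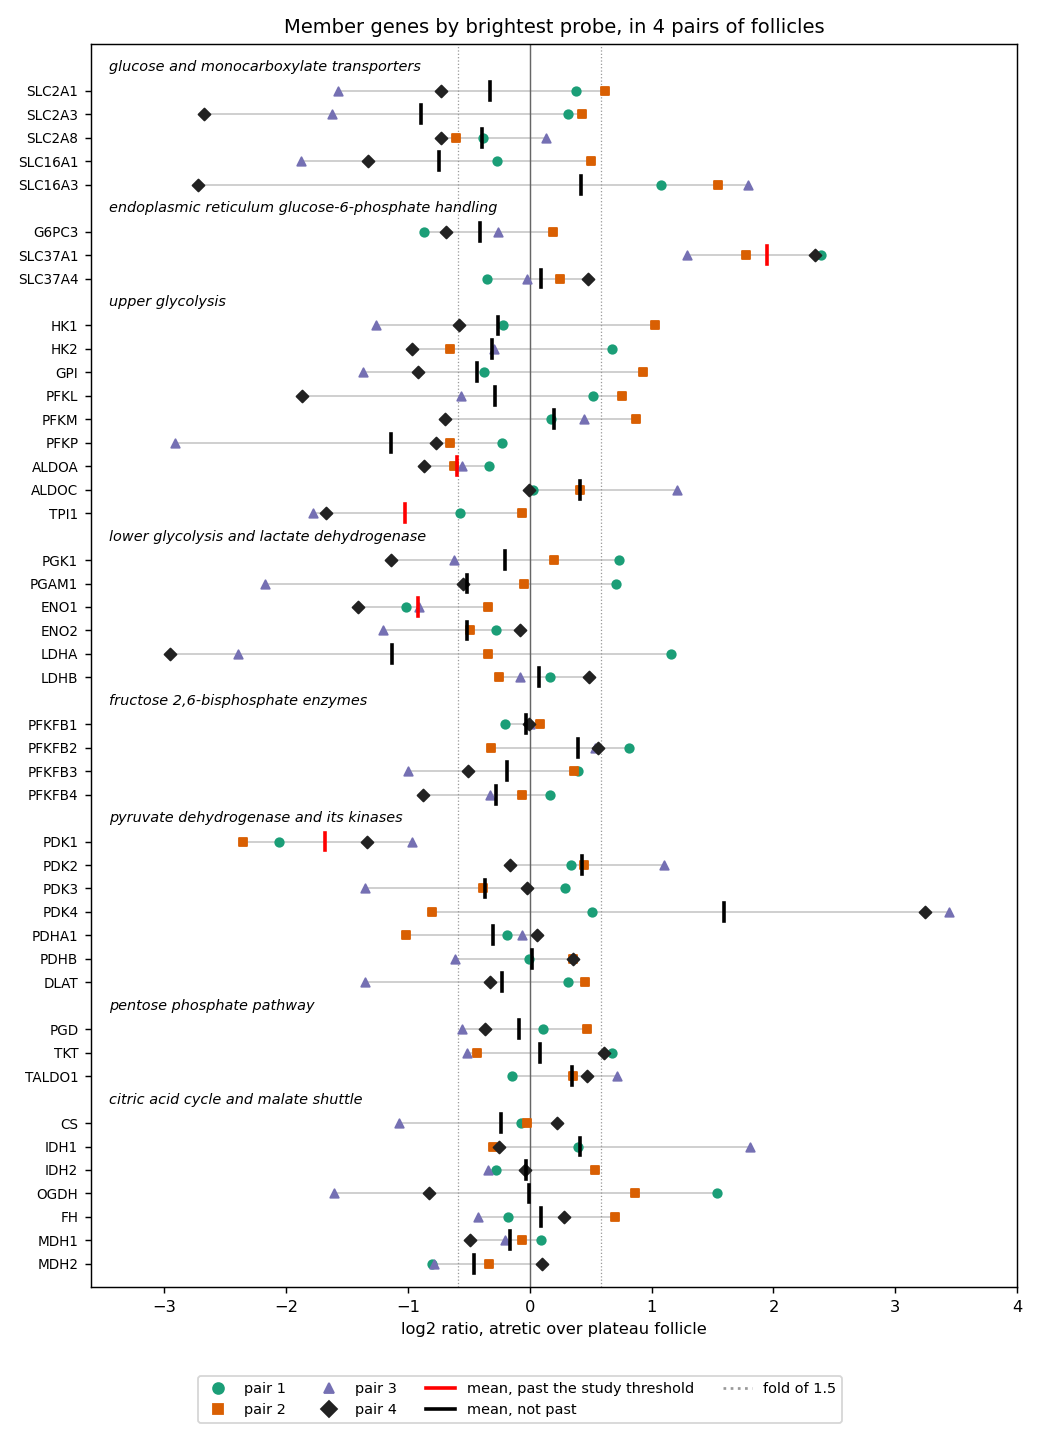
Log2 ratios of atretic over plateau for the 44 member genes by brightest probe, grouped by role, with a symbol for each of 4 pairs, a thick bar for the mean (red where past the study's threshold) and dotted lines at a fold of 1.5. Most bars lie left of 0, and in glycolysis and among transporters pairs 3 and 4 lie left of pairs 1 and 2 in most rows.

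The carriers that move glucose, lactate and pyruvate across membranes did not pass the threshold, with 0 of 5 genes rising or falling. Their mean ratio was 0.22 in pair 1 and 0.50 in pair 2, but -0.63 in pair 3 and -1.63 in pair 4. SLC16A1, a carrier of lactate and pyruvate, read 11.25, 9.68, 9.56 and 10.87 in the atretic follicles of pairs 1 to 4, against 11.52, 9.18, 11.44 and 12.20 in the plateau follicles. It was lower in atretic follicles of pairs 3 and 4, near its partner in pair 1 and higher in pair 2, and the groups overlapped. The ratio was -0.74 ± 1.07 (SD, n = 4), with a 95% interval of -1.78 to 0.30, and its other probes read -0.47 and -0.08. SLC2A8, a glucose carrier of membranes inside the cell, read 8.26, 7.53, 7.80 and 8.28 in atretic follicles, against 8.64, 8.14, 7.67 and 9.01 in plateau follicles. Its 4 pairs were close together, lower in atretic follicles of pairs 1, 2 and 4, with a ratio of -0.396 ± 0.38.

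The other 3 carriers, named after their values were seen, also differed between the pairs. SLC2A3, a high-affinity glucose carrier, had ratios of 0.31, 0.43, -1.62 and -2.68 in pairs 1 to 4, and SLC2A1, which takes up glucose in most cells, had 0.38, 0.61, -1.58 and -0.73. In both, atretic follicles were higher in pairs 1 and 2 and lower in pairs 3 and 4. SLC16A3, which exports lactate, read 13.90, 10.45, 11.05 and 11.21 in atretic follicles, against 12.83, 8.90, 9.25 and 13.93 in plateau follicles, and was lower in the atretic follicle of pair 4 alone.

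Glucose-6-phosphate is carried into the endoplasmic reticulum and split there by glucose-6-phosphatase. In this group SLC37A1, a carrier of sugar phosphates in that membrane, was the only member of the 44 that rose. Its probe (EMBV3_26391) read 9.74, 12.80, 10.44 and 10.40 in atretic follicles, against 7.36, 11.03, 9.15 and 8.06 in plateau follicles. The atretic follicle was the higher of every pair and on 8 of 8 arrays, but both follicles of pair 2 were brighter than those of the other pairs, so that the groups overlapped. The ratio was 1.95 ± 0.52 (SD, n = 4), about 3.86-fold, with a 95% interval of 1.39 to 2.50 and an adjusted p of 0.167 in limma. Without pair 3 it was 2.17. No second probe was present to set beside it.

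SLC37A4, which carries glucose-6-phosphate itself, read 11.86, 12.95, 11.97 and 12.67 in atretic follicles, against 12.21, 12.70, 11.998 and 12.19 in plateau follicles, a ratio of 0.09 ± 0.36 with a 95% interval of -0.33 to 0.51. G6PC3, a catalytic subunit of glucose-6-phosphatase found in most tissues, read 9.75, 9.07, 9.60 and 9.26 in atretic follicles, against 10.62, 8.88, 9.86 and 9.94 in plateau follicles. The atretic follicle was lower in 3 of the 4 pairs, with a ratio of -0.404 ± 0.47, and the dimmer probe read 0.03. Both genes lay within the spread of the pairs.

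Glycolysis with lactate dehydrogenase was measured by 15 genes, of which 12 had a mean ratio below 0, 3 fell and 0 rose. Of all genes tested, 2.88% fell and 2.79% rose. The median ratio of the glycolytic genes was -0.43. The pairs differed in these genes, since 1 gene was lower in the atretic follicle by a fold of 1.5 in pair 1 and 3 in pair 2, against 9 in pair 3 and 10 in pair 4. Over all genes of the array the share lower by that fold was 9.49% in pair 1, 10.8% in pair 2, 16.9% in pair 3 and 9.11% in pair 4. The share of glycolytic genes was 6.67%, 20%, 60% and 66.7%, below that of the array in pair 1 and above it in pairs 2 to 4. The array's shares in this paragraph were not matched to these genes for brightness. The median ratio of glycolytic genes was 0.03, -0.07, -0.91 and -0.86 in pairs 1 to 4. In the other direction, 4 genes were higher by that fold in pair 1 and 4 in pair 2 (26.7% each), 1 in pair 3 (6.67%) and 0 in pair 4. Over all genes the share higher by that fold was 9.99% in pair 1, 12.4% in pair 2, 17.1% in pair 3 and 10.6% in pair 4, so that glycolytic genes lay above the array's share in pairs 1 and 2 and below it in pairs 3 and 4.

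The stroma markers were at a mean ratio of -3.53 in pair 3, where the granulosa markers were at 2.28. In pair 4, where glycolytic genes were also low, the stroma markers differed by -0.10 and the granulosa markers by -0.67. In pairs 1 and 2 the stroma markers differed by 1.07 and -0.77 and the granulosa markers by -0.13 and 0.99. By brightest probe, none of the genes in the 8 marker lists rose or fell at the study's threshold, and the part of these cells in pair 3 was not tested.

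**Figure D2:**
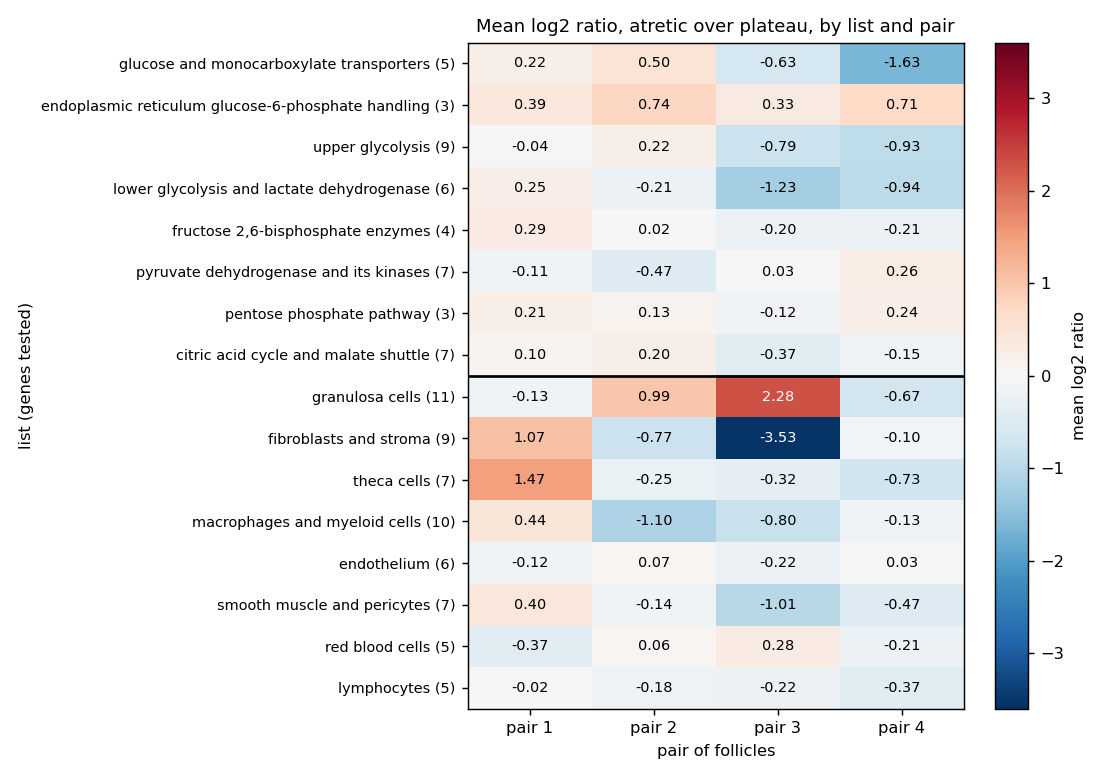
Mean log2 ratio of atretic over plateau for each role group of the members (above the line) and each list of cell type markers (below it), in pairs 1 to 4, with the number of genes tested in brackets; red is higher and blue lower in the atretic follicle. The glycolytic groups were at -0.79 and -1.23 in pair 3 and at -0.93 and -0.94 in pair 4, and the stroma markers stood far below 0 in pair 3 only.

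In the upper part of glycolysis, which spends ATP to make triose phosphates, ALDOA and TPI1 fell and 7 genes did not pass. ALDOA, the aldolase that cleaves fructose 1,6-bisphosphate (EMBV3_37035), read 12.59, 11.07, 11.81 and 12.07 in atretic follicles, against 12.93, 11.70, 12.36 and 12.93 in plateau follicles. The ratios of the pairs ran from -0.34 in pair 1 to -0.86 in pair 4, and the atretic follicle was lower on 8 of 8 arrays. Levels moved more between pairs than within them, so that the groups overlapped. The ratio was -0.59 ± 0.22 (SD, n = 4), with a 95% interval of -0.92 to -0.27 and an adjusted p of 0.326 in limma. It lay at the fold of 1.5 itself (0.58 on the log2 scale) and no longer passed without background correction, on the slide with atretic RNA in Cy3 alone, or without pair 2 or pair 4, where it was -0.58 and -0.50. Without pair 3 it was -0.61.

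TPI1, which interconverts the triose phosphates (EMBV3_10091), read 14.87, 13.26, 13.67 and 13.87 in atretic follicles, against 15.45, 13.33, 15.45 and 15.54 in plateau follicles. The plateau follicles of pairs 1, 3 and 4 were within 0.1 of each other, the atretic follicles of pairs 3 and 4 were well below them, and both follicles of pair 2 were low. The ratio was -1.02 ± 0.84 (SD, n = 4), with a 95% interval of -1.86 to -0.19 and an adjusted p of 0.589 in limma. It rested on pairs 3 and 4, since it did not pass without either of them, at -0.77 without pair 3 and -0.81 without pair 4, nor on the slide with atretic RNA in Cy3, at -0.71.

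PFKP, the platelet form of phosphofructokinase, had the largest mean difference of the upper part but did not pass. It read 8.51, 7.57, 8.27 and 7.76 in atretic follicles, against 8.73, 8.22, 11.18 and 8.53 in plateau follicles. The plateau follicle of pair 3, which was rich in stroma markers, was far above all others, and the ratio of -1.14 ± 1.20 became -0.55 without it. The liver and muscle forms, PFKL and PFKM, had ratios of -0.29 ± 1.20 and 0.20 ± 0.66. ALDOC, an aldolase mostly of brain, was dim, with 7.90, 7.65, 8.01 and 7.98 in atretic follicles, against 7.87, 7.23, 6.80 and 7.99 in plateau follicles. Its ratio was 0.41 ± 0.56 and came mainly from pair 3, where the plateau follicle lay at the level of the negative controls. HK1 and HK2, the hexokinases that trap glucose in the cell, had -0.26 ± 0.96 and -0.31 ± 0.71, and GPI, the next enzyme, had -0.43 ± 0.99.

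In the lower part, which yields ATP and pyruvate, ENO1 fell and 5 genes did not pass. ENO1, the common enolase (EMBV3_38435), read 11.81, 10.17, 10.45 and 11.11 in atretic follicles, against 12.82, 10.51, 11.36 and 12.52 in plateau follicles. The atretic follicle was lower in every pair and on 8 of 8 arrays, pair 2 was low in both follicles, and the groups overlapped. The ratio was -0.92 ± 0.44 (SD, n = 4), with a 95% interval of -1.41 to -0.43 and an adjusted p of 0.314 in limma, and it was -0.92 without pair 3. A dimmer probe, at a mean log2 intensity of 7.92, had ratios of 0.02, 0.74, -0.48 and -1.08 in pairs 1 to 4, and the mean of both probes did not pass. ENO2, the enolase of neurons, was near background with 7.11, 7.81, 7.26 and 6.92 in atretic follicles, against 7.38, 8.30, 8.46 and 7.004 in plateau follicles, a ratio of -0.51 ± 0.49 that was largest in pair 3.

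LDHA, the subunit of lactate dehydrogenase that prevails in tissues with much glycolysis, had the largest swing of these genes. It read 15.57, 11.26, 12.85 and 12.67 in atretic follicles, against 14.41, 11.61, 15.25 and 15.62 in plateau follicles. In pairs 3 and 4 the atretic follicle was more than a log2 unit lower, in pair 1 it was the higher one, and in pair 2 both were low, which gave ratios of 1.16, -0.34, -2.40 and -2.95. The mean of -1.13 ± 1.89 (SD, n = 4) did not pass, with a 95% interval of -2.94 to 0.68. Without pair 1 the ratio was -1.90 and passed. It did not pass without pair 2, 3 or 4, at -1.40, -0.71 and -0.53. A second probe, almost as bright, had 1.15, -0.32, -2.42 and -2.68, so the order of the pairs was shared by both probes. LDHB, the subunit typical of heart, had a ratio of 0.08 ± 0.32, and its pairs lay between -0.25 and 0.49. PGK1, which makes the first ATP of this part, had 0.74, 0.20, -0.62 and -1.14 in pairs 1 to 4 and PGAM1, the mutase after it, had 0.71, -0.04, -2.17 and -0.55, both higher in the atretic follicle of pair 1 and lower in that of pairs 3 and 4.

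**Figure D3:**
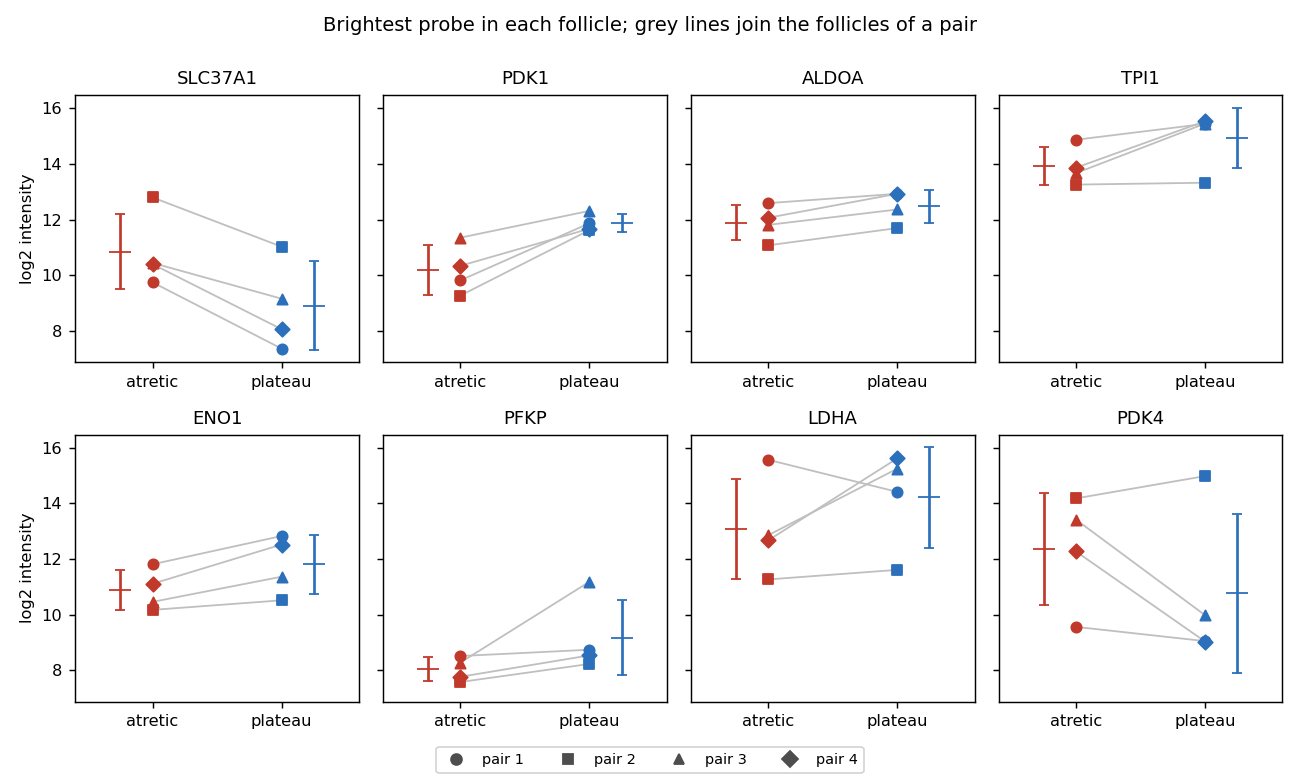
Log2 intensity of the brightest probe in each of 4 atretic follicles (left, red) and 4 plateau follicles (right, blue) for the 5 genes past the study's threshold and for PFKP, LDHA and PDK4, with a symbol for each pair and the mean ± SD beside the points. In PDK1 all atretic follicles lie below all plateau follicles, in SLC37A1, ALDOA, TPI1 and ENO1 the lines run one way although the groups overlap, and in LDHA and PDK4 the lines cross.

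Fructose 2,6-bisphosphate, the main activator of phosphofructokinase, is made and broken down by the PFKFB enzymes. None of the 4 rose or fell, and their mean log2 intensities were 7.23 to 8.48, beside a median of 8.25 over all genes. PFKFB2, the form typical of heart, read 9.31, 8.16, 8.33 and 8.85 in atretic follicles, against 8.502, 8.47, 7.80 and 8.28 in plateau follicles. The atretic follicle was higher in pairs 1, 3 and 4 and lower in pair 2, with a ratio of 0.398 ± 0.49. PFKFB4 read 7.65, 6.996, 6.87 and 7.78 in atretic follicles, against 7.49, 7.06, 7.20 and 8.66 in plateau follicles, and its ratio of -0.27 ± 0.45 came mainly from pair 4. PFKFB3, a form with high kinase activity, had 0.4, 0.37, -0.998 and -0.51 in pairs 1 to 4, higher in the atretic follicle of pairs 1 and 2 and lower in that of pairs 3 and 4.

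At the entry to mitochondria, the 4 kinases of pyruvate dehydrogenase did not move together. PDK1, a kinase that responds to low oxygen in many cells, fell by its brightest probe (EMBV3_37861). This probe read 9.81, 9.27, 11.35 and 10.34 in atretic follicles, against 11.87, 11.62, 12.31 and 11.67 in plateau follicles. Every atretic follicle was below every plateau follicle, the only member probe of 69 (1.45%) without overlap, beside 2.26% of all probes tested. The ratio was -1.68 ± 0.64 (SD, n = 4), with a 95% interval of -2.33 to -1.02, an adjusted p of 0.18 in limma and -1.92 without pair 3.

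The other probes of PDK1 did not follow it. The second (EMBV3_32375, mean log2 intensity 8.8) had ratios of 0.69, 0.01, 1.41 and -0.23 in pairs 1 to 4 and a mean of 0.47 ± 0.74. The third (EMBV3_17526, 7.19) had 0.03 ± 0.51, and the fourth, at 6.91 not tested, had -0.22 ± 0.13. Only the brightest probe thus carried the fall, and the mean over the tested probes, -0.39, did not pass. Its levels over the 16 channels of the 8 arrays correlated at 0.94 with a profile shared by 158 probes of the array (0.464% of those tested), of which 156 fell at the study's threshold and 88 had a symbol. The mean ratio of these probes was -1.71, -1.70, -0.95 and -1.19 in pairs 1 to 4, beside -2.06, -2.36, -0.96 and -1.34 for PDK1. No other member probe correlated above 0.9 with this profile, and whether it has a part in the PDK1 reading was not tested. A second profile, of 402 probes, was taken from the 8 log ratios of Cy5 over Cy3. The brightest PDK1 probe correlated with that profile at 0.996, ALDOA at 0.889, ENO1 at 0.814, TPI1 at 0.615 and SLC37A1 at -0.963. These log ratios change sign with the dye swap, so that a probe with one direction on all arrays tends to follow or mirror it by design.

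PDK4, a kinase that rises in many tissues when fat is burned, had the largest positive mean after SLC37A1 but did not pass. It read 9.56, 14.18, 13.41 and 12.27 in atretic follicles, against 9.04, 14.98, 9.98 and 9.03 in plateau follicles. The atretic follicles of pairs 3 and 4 were far above their partners, both follicles of pair 1 were low and both of pair 2 were high. The ratio was 1.597 ± 2.08 (SD, n = 4), with a 95% interval of -0.39 to 3.58, and 0.98 without pair 3, and the dimmer probes read 0.48 ± 0.78 and 0.38 ± 1.08. PDK4 and LDHA were set side by side after their values were seen. In pairs 3 and 4 they went opposite ways, with 3.44 and 3.24 for PDK4 and -2.40 and -2.95 for LDHA. In pairs 1 and 2 they went the same way, with 0.51 and -0.80 for PDK4 and 1.16 and -0.34 for LDHA.

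PDK2, the most widespread of the kinases, read 11.34, 11.15, 11.31 and 11.03 in atretic follicles, against 11.004, 10.70, 10.21 and 11.19 in plateau follicles. It was higher in the atretic follicle in pairs 1 to 3, with a ratio of 0.43 ± 0.52 and a 95% interval of -0.12 to 0.98. PDK3 had -0.37 ± 0.71. Of the complex that these kinases act on, the subunits PDHA1, PDHB and DLAT had -0.30 ± 0.49, 0.02 ± 0.46 and -0.23 ± 0.82, and the probes of PDHA1 read -0.30, 0.03 and 0.49.

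The pentose phosphate pathway, which makes NADPH and ribose, had 0 of 3 genes past the threshold. TALDO1, transaldolase, read 10.66, 11.12, 11.59 and 10.87 in atretic follicles, against 10.80, 10.76, 10.87 and 10.40 in plateau follicles. It was higher in the atretic follicle in pairs 2 to 4, with a ratio of 0.35 ± 0.36, while its other tested probes ran from 0.13 to -0.29. PGD, which releases NADPH, read 14.00, 12.91, 12.48 and 13.03 in atretic follicles, against 13.89, 12.44, 13.04 and 13.40 in plateau follicles, and its ratio of -0.08 ± 0.46 has a 95% interval of -0.59 to 0.42. TKT, transketolase, had 0.08 ± 0.64.

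Of the citric acid cycle and the malate shuttle, 0 of 7 genes passed. MDH2, the malate dehydrogenase of mitochondria, read 12.87, 10.88, 11.67 and 12.77 in atretic follicles, against 13.67, 11.22, 12.45 and 12.68 in plateau follicles, and MDH1, its counterpart in the cytosol, read 14.65, 12.97, 13.88 and 14.29 in atretic follicles, against 14.56, 13.03, 14.08 and 14.78 in plateau follicles. MDH2 was lower in the atretic follicle in pairs 1 to 3, with a ratio of -0.46 ± 0.43 and a 95% interval of -0.93 to 0.02. MDH1 differed little in any pair, with -0.17 ± 0.25 and an interval of -0.51 to 0.18. CS, citrate synthase, had -0.24 ± 0.57, FH, fumarase, 0.09 ± 0.50, and IDH2, a mitochondrial isocitrate dehydrogenase close to background, -0.03 ± 0.401. The largest spread, in genes named after their values were seen, was that of OGDH, a subunit of the oxoglutarate dehydrogenase complex, with 1.54, 0.86, -1.61 and -0.83 in pairs 1 to 4. IDH1, a cytosolic isocitrate dehydrogenase and the brightest member, had 0.396, -0.30, 1.81 and -0.25.

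Probes of one gene often differed. Of the 16 genes with more than 1 tested probe, 10 had probes on both sides of 0. The brightest probe was below 0 and a dimmer one above it in 8 of these, with -1.68 against 0.47 in PDK1, -0.30 against 0.49 in PDHA1 and -0.31 against 0.37 in HK2. In SLC2A1, HK1, G6PC3, CS and MDH1 the dimmer probe was at no more than 0.15, and in TALDO1 and PDHB the brightest probe was above 0 and a dimmer one below it. LDHA was the only gene whose 2 probes were both brighter than 13, and they differed by 0.07.

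**Figure D4:**
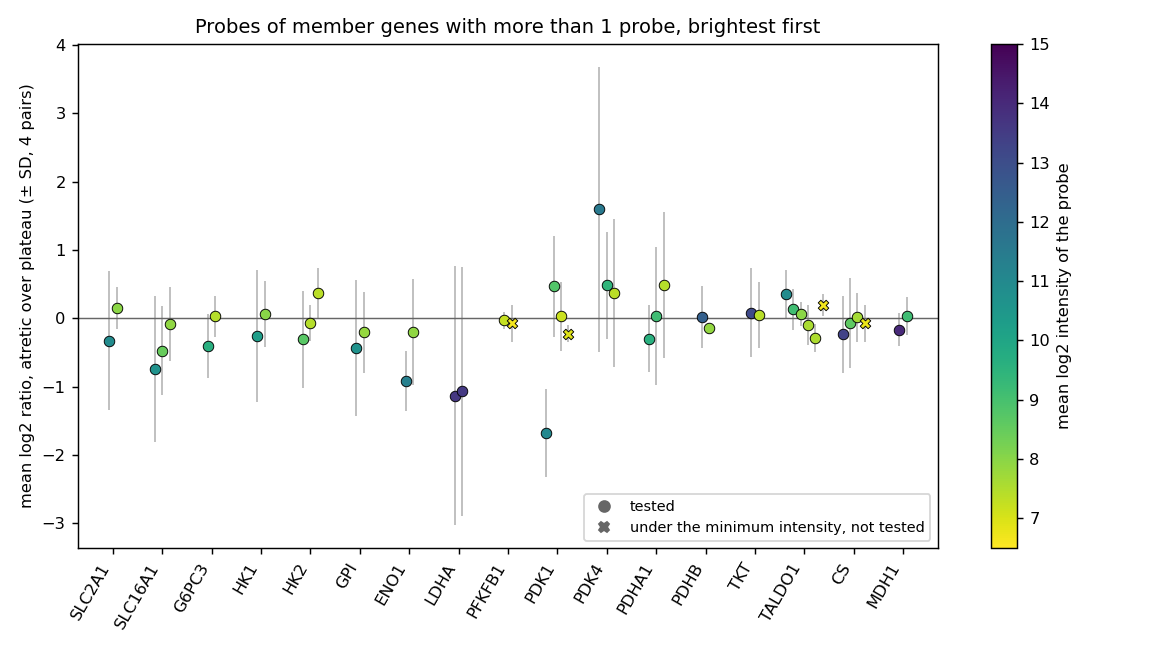
Mean log2 ratio of atretic over plateau ± SD over 4 pairs for every probe of the 17 member genes with more than 1 probe, brightest first within a gene and darker when brighter; crosses mark probes that were too dim to test. The brightest probe of PDK1 stands at -1.68 apart from its other probes, and the pair of LDHA probes lies at -1.13 and -1.07.

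Beyond the members, 96 further names of the same pathways were looked up, of which 79 had a probe and 74 genes were tested. Their median ratio was -0.04, with 3 genes of 74 rising and 1 falling, beside 2.79% rising and 2.88% falling of all 13068 genes. SLC2A6, a lysosomal glucose carrier, rose by 0.72 ± 0.43 (SD, n = 4), with 11.98, 11.29, 10.59 and 11.46 in atretic follicles, against 11.07, 11.19, 9.79 and 10.39 in plateau follicles, although a dimmer probe read -0.64. Its mean ratio was -0.41 on the slide with atretic RNA in Cy5 and 1.85 on that with atretic RNA in Cy3, and it was higher in the atretic follicle on 5 of 8 arrays, so that the direction turned with slide and dye. ME3, a mitochondrial malic enzyme, rose by 0.72 ± 0.59, with a dimmer probe at 0.03, and GYG1, which primes glycogen, rose by 0.61 ± 0.55, most of it in pair 4. IDH3A, the catalytic subunit of the NAD-dependent isocitrate dehydrogenase of the citric acid cycle, fell, reading 13.68, 9.01, 11.06 and 12.38 in atretic follicles, against 14.55, 10.07, 12.27 and 14.45 in plateau follicles. The atretic follicle was lower in every pair, with a ratio of -1.30 ± 0.53 (SD, n = 4), with a 95% interval of -1.86 to -0.74 and an adjusted p of 0.215 in limma, although levels of the pairs overlapped.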

How the data were processed

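Granulosa RNA of 4 atretic and 4 plateau follicles was measured on 8 two-colour EmbryoGENE arrays. The authors deposited, for each spot and channel, the median intensity and the local background from their image analysis, with other spot values such as marks for poor spots, and a table of log2 values, Cy5 over Cy3, after background subtraction, loess and quantile normalization. Each column of that table correlated at 0.990 to 0.996 with Cy5 over Cy3 computed here, with medians of -0.0289 to -0.0054, which settled its direction and centring. It served as an alternative.

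The intensities were corrected in limma 3.58.1 (R 4.3.3) with normexp at an offset of 50, then normalized by loess within arrays (span 0.3, control and marked spots at weight 0), followed by quantile normalization between arrays. Marked spots, 7 to 35 on an array, were dropped, and no member spot was marked or saturated. Ratios were turned to atretic over plateau and arrays of equal Area number were averaged. The labels do not tie equal numbers to the same follicles, and the pairing comes from the data, since log ratios correlated at 0.760 to 0.865 between slides at equal numbers and at -0.488 to -0.0328 at unequal ones. Loess and quantile steps assume that most genes do not change and that arrays share a distribution, and bright spots near the scanner limit have compressed ratios.

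Probes of a mean log2 intensity of 7 or more were tested with lmFit and eBayes, with p-values adjusted by Benjamini and Hochberg over 34022 probes. The threshold was that of the study's methods. Gene symbols came from the platform's annotation for 21790 of 43794 gene probes, with 982 updated through gene records of assembly ARS-UCD2.0, and no coordinates or sequences were printed. The brightest probe stood for its gene. Named with every follicle's value were members past the threshold and up to 2 more per role group by smallest p, and of other lists those past the threshold. The members and lists were chosen with earlier results of these data known. Alternatives changed background correction, normalization, filter, marked spots, source of values, slide, variance model, dye swaps, fold, probe and profile, and left out each pair. The shared profile was built around the probe of mean log2 intensity 11 or more with most partners at a correlation above 0.95, taking probes above 0.9. The fit was tested on simulated data. Software for figures was Python 3.11.15 with matplotlib 3.10.9.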

Additional observations from a re-analysis of the deposited data

Results flagged for a closer look

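In 63 groups of 4 values, those of the named genes, 2 groups had a value far from the other 3, where chance marks about 1 in 20. Both were of the plateau follicle of pair 2. TPI1 had a log2 intensity of 13.33 there, against 15.45 to 15.54 in the other plateau follicles. PDK4 had 14.98 there, against 9.03 to 9.98 in the other plateau follicles. The atretic follicle of the same pair was also at the end of its group in both genes, lowest for TPI1 at 13.26 and highest for PDK4 at 14.18.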

How the results depend on the processing

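Of the 44 members, 5 probes and 5 genes passed the study's threshold. With the 8 arrays and the pair as a replicate block, 10 member probes of 9 genes passed, and the same numbers did with a dye term added, where LDHA, PFKP, SLC16A1 and PDK4 passed as well. These fits put 556 and 444 probes of the array past an adjusted p of 0.05. They take all 8 arrays of the 4 pairs, with 1 correlation within pairs for every probe, 0.44 and 0.66. In them, 6.48% and 6.42% of all probes passed the study's threshold, against 4.06% with pairs averaged. At a fold of 2, 3 probes and 3 genes passed, beside 1.46% of all probes, and 3 genes did when the probes of a gene were averaged. Leaving out each pair gave 4 to 10 probes, while 3.76 to 5.30% of all probes passed. By brightest probe, 8 genes passed without pair 1, 10 without pair 2, 4 without pair 3 and 7 without pair 4. Shares over all genes, in place of probes, were computed for the main fit only, so that these gene counts have none beside them. The median of the members stayed below 0, between -0.34 and -0.04, in every alternative.

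Of the named genes, PDK1 read 0.47 without the probes of the shared profile, taken from log ratios or, an alternative chosen after seeing the data, from the 16 channels. Its brightest probe belongs to both profiles and was removed with them. The value is therefore that of its second probe and is no test of the first. Without 1 pair, PGD ranged from -0.27 to 0.071 and SLC37A4 from -0.042 to 0.23. SLC37A1 passed under all alternatives run. Among the values of named genes under the alternatives, 421 kept direction and side of the threshold, 22 newly passed, 11 no longer passed and 5 turned. The turns include those of PDK1 through the removal of its brightest probe. With loess only, 559 probes of the array were higher and 736 lower, against 714 and 667 with quantiles between arrays, and with Aquantile the numbers were those of loess only. Those that stopped passing in an alternative were ALDOA, TPI1, ENO1 and, averaged over its probes, PDK1. Values near 7 on the log2 scale are close to the negative controls, so that changes of ENO2, ALDOC, PFKFB1, PFKFB4 and IDH2 may be understated.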

Other observations

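Hypoxia-inducible factor controls many glycolytic genes, and 14 genes of the factor and of targets outside metabolism were read beside the members. Their median log2 ratio was -0.25, with 1 gene of 14 rising and 2 falling at the study's threshold. Of all genes tested, 2.79% rose and 2.88% fell. HIF1A, the oxygen-regulated subunit, had 0.26 ± 1.18 and VEGFA, which draws in blood vessels, -0.32 ± 1.09 (SD, n = 4), neither past the threshold. ADM, the vasodilator adrenomedullin, rose by 1.10 ± 1.12, with 7.67, 12.41, 10.70 and 9.12 in atretic follicles, against 7.57, 11.93, 8.06 and 7.93 in plateau follicles, most of it in pair 3, and its dimmer probe read 0.17. DDIT4, an inhibitor of mTOR signalling, fell by 1.07 ± 1.03, most of it in pair 4. NDRG1, a stress-response gene, fell in all 4 pairs, by 1.33 ± 0.36, with 9.22, 8.47, 11.54 and 11.28 in atretic follicles, against 10.98, 9.94, 12.69 and 12.21 in plateau follicles, and its probe correlated at 0.94 with the profile that the brightest PDK1 probe follows. The list as a whole had a mean ratio of -0.05, -0.15, 0.33 and -0.55 in pairs 1 to 4.

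In the list of glycogen and hexosamine enzymes, GFPT2, which starts hexosamine synthesis, had ratios of 2.68, -1.37, -5.60 and -0.34 in pairs 1 to 4 and was named after its values were seen. Its plateau follicle of pair 3, rich in stroma markers, was the brightest of all, at 15.69.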
